A study of Mus musculus with 6 samples.

Results

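Integrins were followed here through 10 of their chains, Itgax, Itga7, Itga2, Itgae, Itgal, Itgb2, Itga4, Itgb1, Itgb7 and Itgav, in activated naive CD4 T cells (CD4N cells) from Foxo1TKO and Foxo1Ctrl mice. The 10 genes are part of the 27 integrin chains listed and of the 55487 genes counted, and all 10 were found by symbol. They were chosen from their measured values in this same comparison of genotypes, so their differences are given as a description, without a test. Foxo1TKO mice lack the transcription factor Foxo1 in their T cells and Foxo1Ctrl mice express it, both on a C57BL/6J background. The promoter that drives the deletion, the age of these mice, and whether the 3 libraries of a genotype came from separate mice are not given in the labels, so the errors below measure the spread between libraries, which may be technical. The paper describes Foxo1TKO mice as carrying CD4-Cre and floxed Foxo1, and Foxo1Ctrl mice as floxed without Cre. Its methods describe both lines as carrying a Foxp3-GFP reporter and as young adult. They give an age of 3 months for young mice where nothing else is stated. All 6 cultures were alike in treatment. CD4N cells, 50000 per culture in the labels and more in the methods, were activated for 4 days with soluble anti-CD3 antibody at 0.1 µg/ml and with 250000 splenocytes from CD3eKO mice, a strain devoid of T cells. Whether the splenocytes were removed before RNA extraction is stated neither in the labels nor in the methods.

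Integrins are adhesion receptors built from an α and a β chain, and only the pair reaches the cell surface. Which α chain joins which β chain sets the ligand. In T cells, αL with β2 (LFA-1) binds ICAMs and holds the contact with antigen presenting cells, α4 with β1 (VLA-4) binds VCAM-1 and fibronectin, and α4 with β7 binds MAdCAM-1 on gut vessels. Other chains are best known from other cells: αX (CD11c, Itgax) from dendritic cells, α7 (Itga7) from muscle, where it binds laminin, and α2 (Itga2) from platelets and NK cells, where it binds collagen.

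Foxo1 itself was at 85.4, 46.5 and 115 normalized counts in the Foxo1TKO libraries and at 1529, 2285 and 1598 in the Foxo1Ctrl libraries. Normalized counts are RSEM expected counts scaled between libraries by edgeR's TMM factors, and are compared between libraries for 1 gene at a time. Library totals ran from 14783890 to 19675447 counts. The 12 T cell markers were all detected and summed to 176400 to 184408 normalized counts in Foxo1TKO and 203600 to 230248 in Foxo1Ctrl libraries. Of the 13691 genes that passed a filter on low counts (10 counts in 3 libraries), edgeR's quasi-likelihood test called 1525 higher (11.1%) and 1619 lower (11.8%) in Foxo1TKO cells, the limits being an adjusted p of 0.05 and a 1.5-fold change.

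The promoters of 3 chains whose genotypes did not overlap are shown first. The RefSeq table of GRCm38.p6 promoters held 6 of the 10 genes: Itga2, Itga4, Itgav, Itgax, Itgb1 and Itgb7. The 250 bases before the start site, written 5′ to 3′ on the strand of the gene, are given for Itgax, the chain gained in Foxo1TKO libraries, at chr7:128129300-128129549 on the plus strand, for Itga2, nearly lost, at chr13:114932101-114932350 on the minus strand, and for Itga4, which was lower, at chr2:79255176-79255425 on the plus strand. Capitals mark matches to GTAAAC (the forkhead core that Foxo proteins bind), to TGTGGT (Runx) and to TGACTCA (AP-1), searched on both strands and read here on the strand shown.
Itgax: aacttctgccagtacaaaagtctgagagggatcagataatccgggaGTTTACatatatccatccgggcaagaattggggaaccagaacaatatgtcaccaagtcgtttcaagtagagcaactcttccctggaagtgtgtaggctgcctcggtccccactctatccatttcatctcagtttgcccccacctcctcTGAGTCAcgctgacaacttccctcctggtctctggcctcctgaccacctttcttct
Itga2: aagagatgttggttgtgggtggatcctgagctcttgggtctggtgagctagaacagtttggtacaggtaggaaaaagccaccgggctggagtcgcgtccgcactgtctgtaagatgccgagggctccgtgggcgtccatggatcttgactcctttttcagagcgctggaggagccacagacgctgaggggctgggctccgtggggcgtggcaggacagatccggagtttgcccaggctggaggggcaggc
Itga4: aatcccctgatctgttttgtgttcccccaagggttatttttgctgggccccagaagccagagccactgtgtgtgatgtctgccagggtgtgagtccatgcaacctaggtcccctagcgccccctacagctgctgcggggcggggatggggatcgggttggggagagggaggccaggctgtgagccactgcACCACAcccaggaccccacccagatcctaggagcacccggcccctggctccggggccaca
The window of Itgax held GTTTAC, the reverse complement of the forkhead core, 204 to 199 bases before its start and TGAGTCA, the reverse complement of the AP-1 letters, at 56 to 50 bases. Itga4 held ACCACA, the reverse complement of the Runx letters, 60 to 55 bases before its start, and the windows of Itga2, Itgav, Itgb1 and Itgb7 held none of these matches. The longer forkhead form GTAAACA, which contains the core, was in none of the 6 windows. Among all 32851 promoters of the table, 6.92% held the forkhead core, 3.17% its longer form, 14.05% the Runx letters and 4.46% the AP-1 letters. A match of letters is a description of the window and no evidence of binding.

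Among the 10 chains, 2 were called higher in Foxo1TKO libraries (Itgax and Itgav), 4 lower (Itga7, Itga2, Itga4 and Itgb7) and 4 neither way (Itgal, Itgb2, Itgb1 and Itgae), against 23% of all tested genes called in either direction. The same 6 chains had genotypes that did not overlap, against 42.7% of all tested genes. All 10 passed the filter on low counts, but Itgax passed it only through Foxo1TKO libraries, and Itga7 and Itga2 only through Foxo1Ctrl libraries, so these genes had to differ once they passed, and since the genotypes' values chose the members, nothing is read from these counts.

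**Figure D1:**
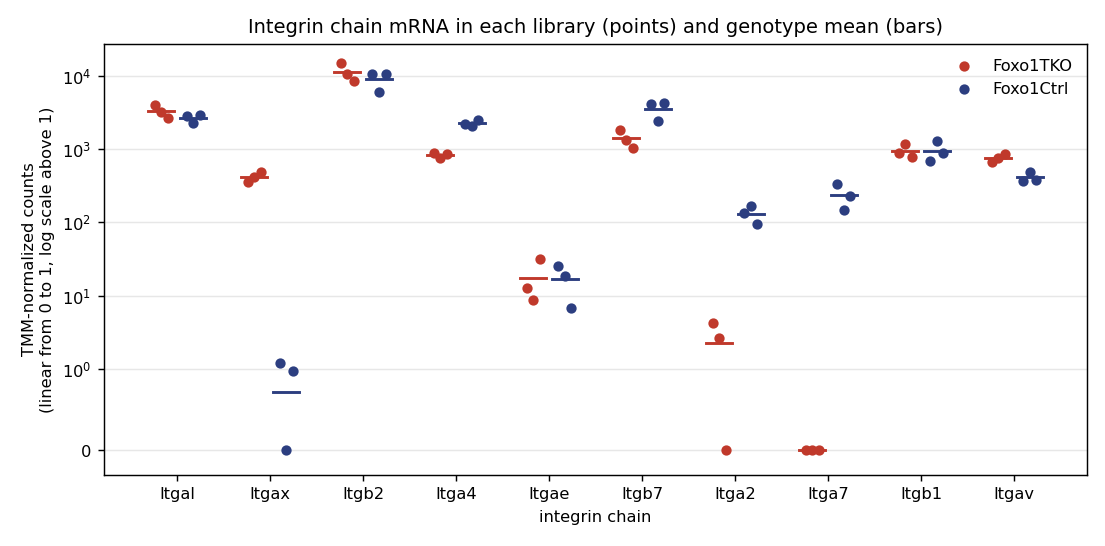
TMM-normalized counts (y axis, linear from 0 to 1 and logarithmic above) of the 10 integrin chains (x axis) in each of 3 Foxo1TKO (red) and 3 Foxo1Ctrl (blue) libraries, with bars at the genotype means. Itgax stood at 349.9 to 485 in Foxo1TKO and at 0 to 1.19 in Foxo1Ctrl libraries, Itga7 was at 0 in all Foxo1TKO libraries, and the points of Itgal, Itgb2, Itgb1 and Itgae overlapped.

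The β2 family is that of the leukocyte integrins. Itgax (ENSMUSG00000030789, chr7:128129547-128150657, plus strand, GRCm38 as for all gene positions here), the αX chain of CD11c/CD18, was at 349.9, 412 and 485 normalized counts in Foxo1TKO libraries and at 1.19, 0 and 0.969 in Foxo1Ctrl libraries. These last were 1, 0 and 1 reads. Every Foxo1TKO library thus stood far above every Foxo1Ctrl library, by at least 116-fold when the Foxo1TKO mean is set against 3 counts per Foxo1Ctrl library. The bound covers counting error only, and ran from at least 106-fold to at least 125-fold when 1 Foxo1TKO library was left out. In these cultures fewer cells with a transcript and less of it per cell cannot be told apart.

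Itgal (ENSMUSG00000030830, chr7:127296260-127335138, plus strand), the αL chain of LFA-1, was at 3948, 3176 and 2684 normalized counts in Foxo1TKO and at 2829, 2257 and 2957 in Foxo1Ctrl libraries. Itgb2 (ENSMUSG00000000290, chr10:77530252-77565708, plus strand), the β2 chain (CD18) that both αL and αX need, was at 14764, 10644 and 8551 in Foxo1TKO and at 10553, 5918 and 10547 in Foxo1Ctrl libraries. The genotypes overlapped for both genes, with log2 fold changes of 0.29 ± 0.19 for Itgal and 0.33 ± 0.28 for Itgb2 (SE, n = 3 libraries per genotype). Both chains were lowest in the same library, replicate 2 of Foxo1Ctrl, and highest in replicate 1 of Foxo1TKO. The T cell marker Zap70 had the same lowest and highest library, so this order was not particular to these chains.

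Compared per transcript length, in TPM (transcript counts per length, scaled to a fixed total), Itgal remained the main α chain for β2 in both genotypes. Itgal made up 89.4%, 86.8% and 82.6% of the summed TPM of Itgal, Itgam, Itgax and Itgad in Foxo1TKO libraries and 97.2%, 99.3% and 99.2% in Foxo1Ctrl libraries. The share of Itgax was 8.32%, 11.6% and 14.9% in Foxo1TKO and at most 0.859% in Foxo1Ctrl libraries. The β2 chain stood at 4.31 ± 0.654 times its summed α partners in Foxo1TKO and at 4.70 ± 0.902 times in Foxo1Ctrl libraries (SD, n = 3), with overlapping genotypes.

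Itgax lies between Itgam (chr7:128062640-128118491) and Itgad (chr7:128154376-128223816), 2 further α partners of β2. Itgad, the αD chain, which is not one of the 10, was at 32.1, 21.1 and 23.6 normalized counts in Foxo1TKO and at 3.58, 0 and 2.91 in Foxo1Ctrl libraries. Its counts were at least 7.16-fold higher in Foxo1TKO libraries. No p is given for it, because it passed the filter on low counts only through those libraries and was named after its values were seen. RSEM shares a read that fits several genes between them, and in the 3 Foxo1TKO libraries the expected counts of Itgax and Itgad were not whole while their sums were, at 452, 493 and 474, so some reads fitted both genes. Itgam, the αM chain of Mac-1 on myeloid cells, was at 16.1, 14.04 and 12.9 in Foxo1TKO and at 58.4, 17.2 and 21.3 in Foxo1Ctrl libraries (log2 fold change -1.11 ± 0.54, adjusted p = 0.16). Of the neighbours, Itgad thus also had higher counts in Foxo1TKO libraries, at a far lower level, and Itgam did not. How many of the Itgad counts came from reads of Itgax cannot be told, and the 7.16-fold bound makes no allowance for them.

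CD11c is also a dendritic cell marker, and splenocytes were in the cultures. The 12 dendritic cell markers summed to 6412 to 8755 normalized counts in Foxo1TKO and to 1547 to 1744 in Foxo1Ctrl libraries. Cd83, which activated lymphocytes also express, made most of that sum (log2 fold change 3.94 ± 0.22, adjusted p = 4.88e-05), and without it the sums were 938 to 1098 in Foxo1TKO and 1124 to 1263 in Foxo1Ctrl libraries. Of the list, 5 genes were tested and only Cd83 was called. Among its defining markers, Zbtb46 was present in every library, at 129, 135 and 119 in Foxo1TKO and at 213, 112 and 210.3 in Foxo1Ctrl libraries (adjusted p = 0.272). Xcr1 was at 67.6, 56.2 and 18.2 against 22.7, 30.9 and 50.4 (adjusted p = 0.585), and the chemokine Ccl22 at 36.5 to 105 against 70.9 to 165 (adjusted p = 0.243). Cd209a was at 0 in every library, and Clec9a, Flt3, Siglech and Clec10a stayed at or below 5.72. The part of dendritic cells in the values of Itgax was not tested. The 12 macrophage and monocyte markers summed to 69.3 to 100.9 in Foxo1TKO and to 44.6 to 56.0 in Foxo1Ctrl libraries, most of it from Cd68, which was at 60.0, 64.9 and 83.7 against 44.1, 44.6 and 34.9 (log2 fold change 0.74 ± 0.29, adjusted p = 0.099), without overlap. Lyz2 reached 17.2 in replicate 3 of Foxo1TKO and was at most 2.91 elsewhere, Mertk, C1qa and C1qc were at 0 in every library, and Adgre1 and Csf1r were at most 3.38. Itgam, which dendritic cells and macrophages also express, had no Foxo1TKO library above a Foxo1Ctrl library.

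The genes whose pattern over the 6 libraries was most like that of Itgax were Prss23, Cavin1, Atp2b2, Agr3 and Xcl1, among 12216 genes whose mean reached 20 normalized counts. Likeness was the root mean square difference of log2(normalized count + 1) after centring, and ran from 0.395 for Prss23 to 0.677 for Xcl1. Prss23, a secreted protease, was at 196, 189 and 232 in Foxo1TKO libraries and at 0 in all Foxo1Ctrl libraries. Xcl1, the chemokine lymphotactin, had the largest counts of the 5, at 2224, 1664 and 1339 against 5.96, 10.3 and 7.75. With 3 libraries per genotype, this ranking mostly picks genes with a difference of like size.

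The β7 pair was the clearest case of an α and a β chain that were low together. Itga4 (ENSMUSG00000027009, chr2:79255426-79333123, plus strand), the α4 chain, was at 876, 765 and 847 normalized counts in Foxo1TKO and at 2222, 2073 and 2481 in Foxo1Ctrl libraries. No Foxo1TKO library came near the lowest Foxo1Ctrl library, and the log2 fold change was -1.44 ± 0.15, that is 2.72-fold lower. Itgb7 (ENSMUSG00000001281, chr15:102215995-102231944, minus strand), its β7 partner in the gut-homing receptor, was at 1837, 1329 and 1045 in Foxo1TKO and at 4054, 2396 and 4237 in Foxo1Ctrl libraries. It was 2.54-fold lower (log2 fold change -1.34 ± 0.28), again without overlap, although replicate 2 of Foxo1Ctrl lay closer to the Foxo1TKO libraries than the other two did.

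Itgae (ENSMUSG00000005947, chr11:73090583-73147446, plus strand), the αE chain (CD103) that also pairs with β7 and binds E-cadherin, was at 12.7, 8.77 and 31.1 normalized counts in Foxo1TKO and at 25.04, 18.3 and 6.78 in Foxo1Ctrl libraries. The values were low and fully mixed between genotypes (log2 fold change 0.06 ± 0.65). The SE leaves a difference in either direction possible. Replicate 3 was the highest Foxo1TKO library and the lowest Foxo1Ctrl library, and leaving out 1 library moved the log2 fold change from -0.58 to 0.44. CD103 also marks many CD8 and regulatory T cells. Cd8b1 was at 94.7, 117 and 91.2 in Foxo1TKO and at 144, 160.1 and 159 in Foxo1Ctrl libraries (adjusted p = 0.0856), and Cd8a at 8.45, 28.1 and 0 against 0, 0 and 1.94. Foxp3 was at 6.44 to 14.9 in Foxo1TKO and 15.5 to 27.4 in Foxo1Ctrl libraries.

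Per length, Itgb7 was at 77.1, 67.8 and 53.2 TPM in Foxo1TKO and at 184, 158 and 175 TPM in Foxo1Ctrl libraries, and its α partners Itga4 and Itgae summed to 16.3, 9.56 and 7.46 TPM against 38.5, 21.4 and 44.98 TPM. Both quantities were lower in every Foxo1TKO library, while their ratio overlapped, at 6.31 ± 1.38 in Foxo1TKO and 5.34 ± 1.81 in Foxo1Ctrl libraries (SD, n = 3). MAdCAM-1 (Madcam1), the ligand of α4β7, and E-cadherin (Cdh1), that of αEβ7, were at 5.96 normalized counts or less in every library.

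Among the β1 integrins, the genotypes overlapped for the β chain and were apart for several of its α partners. Itgb1 (ENSMUSG00000025809, chr8:128685654-128733200, plus strand) was at 892, 1154 and 779 normalized counts in Foxo1TKO and at 677, 1274 and 886 in Foxo1Ctrl libraries. The genotypes overlapped, and the log2 fold change was -0.01 ± 0.26. In contrast to Itgal and Itgb2, it was highest in replicate 2 of both genotypes.

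Itga7 (ENSMUSG00000025348, chr10:128933818-128958282, plus strand), the α7 laminin receptor chain, was at 0, 0 and 0 counts in Foxo1TKO and at 330, 149 and 231 normalized counts in Foxo1Ctrl libraries, which were 277, 130 and 238 reads. Not 1 read was assigned to it in any Foxo1TKO library, while the Foxo1Ctrl libraries spread over more than a doubling. Set against 3 counts per library, it was at least 73.5-fold lower in Foxo1TKO cells (at least 58.9-fold to at least 87.1-fold with 1 Foxo1Ctrl library left out). The genes around it did not share this pattern. Bloc1s1 was at 1738, 2127 and 2189 in Foxo1TKO and 1904, 3153 and 1904 in Foxo1Ctrl libraries (adjusted p = 0.571), and neither Cd63 (adjusted p = 0.22) nor Rdh5 (adjusted p = 0.148) was called.

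The genes most like Itga7 over the 6 libraries were Muc13, Fgfr1, Bace2, Atp6v0d2 and Sntb1, with root mean square differences of 0.209 to 0.562. Muc13, a membrane mucin, was at 0 in all 3 Foxo1TKO libraries and at 243, 149.8 and 278 normalized counts in Foxo1Ctrl libraries. Fgfr1, a fibroblast growth factor receptor, and Bace2, an aspartyl protease, were also at 0 in every Foxo1TKO library. Sntb1, a syntrophin of the dystrophin complex, kept 5.07, 2.63 and 8.59 counts in Foxo1TKO against 1075, 532 and 845 in Foxo1Ctrl libraries.

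Itga2 (ENSMUSG00000015533, chr13:114833081-114932100, minus strand), the α2 collagen receptor chain (CD49b), was at 4.23, 2.63 and 0 normalized counts in Foxo1TKO, which were 5, 3 and 0 reads, and at 134, 166 and 95.9 in Foxo1Ctrl libraries. The lowest Foxo1Ctrl library was thus many times the highest Foxo1TKO library (log2 fold change -5.28 ± 0.62). CD49b is also a marker of NK cells and platelets. The NK receptor genes Klra1, Klra4 and Klra8 were at 1.94 or less, Ncr1 was at 2.15 to 10.99 in Foxo1TKO and 2.38 to 6.78 in Foxo1Ctrl libraries, and Klrb1c overlapped between genotypes (adjusted p = 0.34). The 10 NK cell markers, Klra7 and Klre1 among them, summed to 1539 to 2435 in Foxo1TKO and 1019 to 1317 in Foxo1Ctrl libraries. Without Eomes, which T cells also express, they summed to 267 to 1094 and 798 to 1068. Of the 10, 5 were tested and 1 was called, as higher (20%, against 23% of all tested genes). The platelet genes Pf4, Ppbp and Gp9 were at 3.38 or less in every library. Itga2b, the platelet gene of the αIIb chain, was at 6.76, 3.51 and 1.07 in Foxo1TKO and at 5.96, 8.01 and 19.4 in Foxo1Ctrl libraries, which overlapped. The part of NK cells and platelets in the values of Itga2 was not tested.

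Itga6, the α6 laminin receptor chain, was not among the 10 and was tested. It fell from 1316, 1106 and 1317 in Foxo1Ctrl to 270.5, 318 and 264 in Foxo1TKO libraries (log2 fold change -2.13 ± 0.17, adjusted p = 0.000193). Itga9, the α9 chain that binds osteopontin, was at 8.35, 8.01 and 32.0 in Foxo1Ctrl and at 142, 126 and 143 in Foxo1TKO libraries (2.98 ± 0.52). It passed the filter on low counts only through Foxo1TKO libraries, so no p is given, and without replicate 3 of Foxo1Ctrl, its highest control, the log2 fold change was 3.91. Summed per length over the 12 α chains that can pair with β1, the partners came to 42.8, 41.8 and 39.5 TPM in Foxo1TKO and to 93.1, 62.7 and 95.7 TPM in Foxo1Ctrl libraries. The α4, α6, α7 and α2 chains held 40.5%, 33.5%, 10.99% and 3.52% of this sum on average in Foxo1Ctrl and 25.9%, 16.04%, 0% and 0.0471% in Foxo1TKO libraries. The β1 chain stood at 0.425 ± 0.0882 of its partners' sum in Foxo1TKO and at 0.210 ± 0.0971 in Foxo1Ctrl libraries (SD, n = 3), without overlap.

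**Figure D2:**
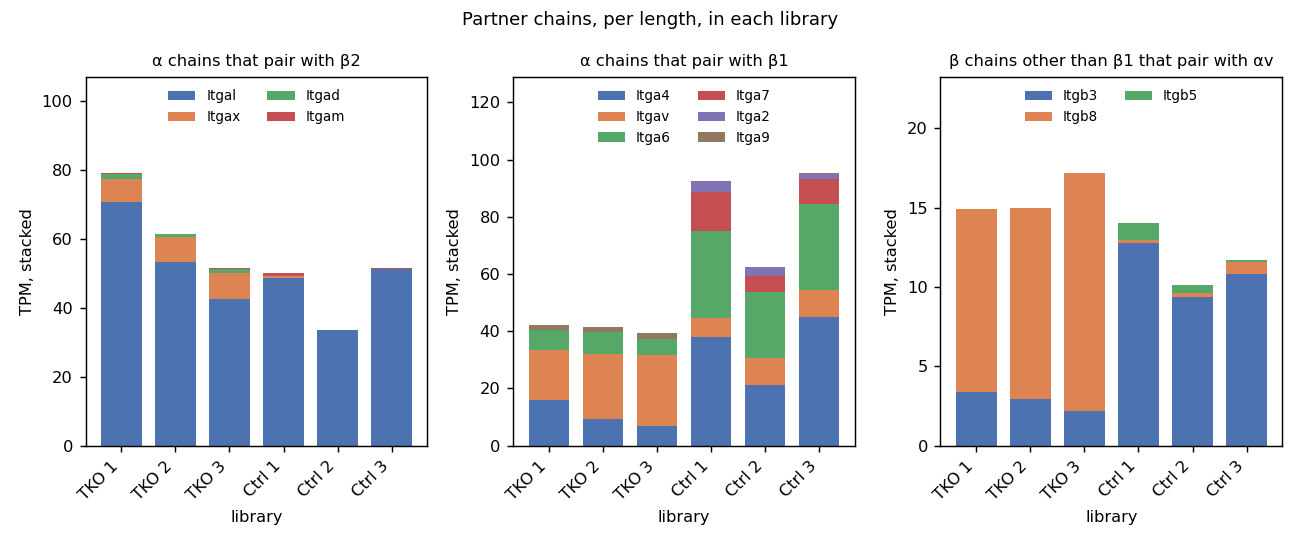
TPM (y axes, stacked from 0) of integrin partner chains in each library (x axes): α chains of β2 on the left, the 6 most abundant α chains of β1 in the middle, and β chains of αv other than β1 on the right. Itgal made up at least 82.6% of the left bars, the middle bars were lower in Foxo1TKO libraries, and the right bars changed from mostly Itgb3 in Foxo1Ctrl to mostly Itgb8 in Foxo1TKO libraries.

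Itgav (ENSMUSG00000027087, chr2:83724397-83806916, plus strand) encodes αv, which pairs with β1, β3, β5, β6 and β8 and binds RGD ligands such as vitronectin, osteopontin and latent TGF-β. It was at 673, 745 and 867 normalized counts in Foxo1TKO and at 366, 492 and 384 in Foxo1Ctrl libraries. All Foxo1TKO libraries were above all Foxo1Ctrl libraries, by 1.84-fold (log2 fold change 0.88 ± 0.19). Per length, its share of the α chains of β1 was 40.8%, 54.5% and 62.4% in Foxo1TKO and 7.22%, 15.3% and 10.1% in Foxo1Ctrl libraries.

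The β partners of αv other than Itgb1 are not among the 10, and 2 of them were called, in opposite directions. Itgb8, the β8 chain of the integrin that activates latent TGF-β, rose from 14.3, 24.0 and 47.5 normalized counts in Foxo1Ctrl to 679, 785 and 1089 in Foxo1TKO libraries (log2 fold change 4.83 ± 0.43, adjusted p = 0.000282). Itgb3, the β3 chain of the vitronectin receptor, fell from 1048, 930 and 892 to 259, 251 and 201 (-2.01 ± 0.18, adjusted p = 0.000299). In TPM summed over Itgb3, Itgb5, Itgb6 and Itgb8, Itgb8 held 77.3%, 80.5% and 87.2% in Foxo1TKO and 1.43%, 2.67% and 6.40% in Foxo1Ctrl libraries, while Itgb3 held 12.8% to 22.6% and 90.9% to 92.6%. Per unit of Itgav TPM there were 0.600 ± 0.0653 of Itgb8 in Foxo1TKO and 0.0452 ± 0.0281 in Foxo1Ctrl libraries (SD, n = 3).

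**Figure D3:**
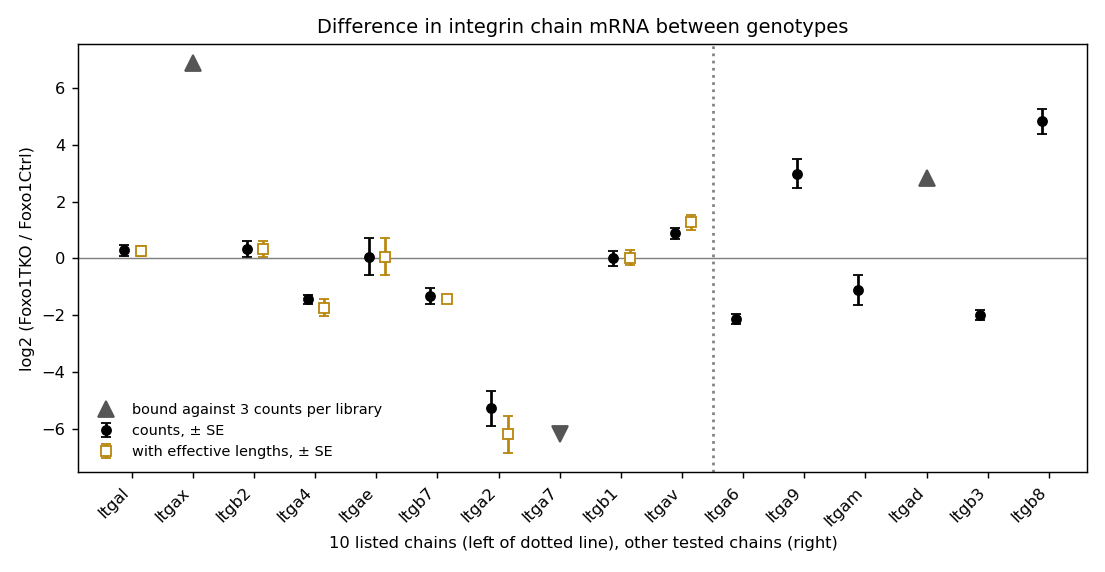
Log2 ratio of Foxo1TKO to Foxo1Ctrl (y axis) for the 10 chains, left of the dotted line, and for the other integrin chains tested, to its right. Black points are fits of counts, open squares fits that include effective lengths (both ± SE, n = 3 libraries per genotype), and triangles are bounds against 3 counts per library. Itgb8 lay at 4.83 and Itga2 at -5.28, whereas Itgal, Itgb2, Itgb1 and Itgae lay within 0.33 of 0.

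Ordered by TPM, the 10 chains ranked differently in the 2 genotypes. In Foxo1Ctrl libraries Itgb2 (218 ± 81.8 TPM) and Itgb7 (172 ± 13.3) led and overlapped, then Itgal (44.4 ± 9.59) and Itga4 (34.7 ± 12.2), which overlapped each other but not Itgb7. Itgb1 (16.5 ± 3.71), Itga7 (9.38 ± 4.01) and Itgav (8.65 ± 1.67) followed, each overlapping its neighbour, and then Itga2 (2.81 ± 1.08), Itgae (0.293 ± 0.170) and Itgax (0.150 ± 0.243), of which only the last 2 overlapped. In Foxo1TKO libraries Itgb2 (282 ± 105) stood alone, followed by Itgb7 (66.0 ± 12.1) and Itgal (55.5 ± 14.3), which overlapped. Itgav (21.6 ± 3.71), Itgb1 (17.6 ± 4.08), Itga4 (10.8 ± 4.73) and Itgax (7.12 ± 0.545) came next, each overlapping the one after it. Itgae (0.310 ± 0.187), Itga2 (0.020 ± 0.020) and Itga7 (0) were last (all SD, n = 3). Itga7 thus ranked above Itgav in Foxo1Ctrl cells and last in Foxo1TKO cells, and Itgax went from the last place to the seventh. The 10 chains held 92.8% to 95.8% of all integrin TPM in Foxo1TKO and 91.6% to 92.9% in Foxo1Ctrl libraries.

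The authors' normalized signal also divides each count by the relative effective length of the gene, an RSEM estimate that follows which transcripts the reads fit. This length varied little for Itgae, Itgb2, Itgb1 and Itgal (the largest at most 1.06 times the smallest over the 6 libraries), but by 1.73 times for Itgav, 2.00 for Itga4, 2.02 for Itgb7 and 2.89 for Itga2. For Itga4 it was 3979, 5351 and 7500 bases in Foxo1TKO and 3992, 5575 and 3758 in Foxo1Ctrl libraries, against a longest annotated transcript of 9767 bases among 5. With effective lengths in the fit, the log2 fold change was -1.74 ± 0.31 for Itga4, 1.27 ± 0.27 for Itgav, -1.44 ± 0.15 for Itgb7 and -6.20 ± 0.65 for Itga2. The Itga2 lengths in Foxo1TKO libraries rested on 5, 3 and 0 reads, so its range of length and this last fold change are uncertain. In that signal the Foxo1Ctrl libraries of Itgb7 lay close together, at 3556, 3739 and 3370, unlike their counts. For Itgax, replicate 1 of Foxo1Ctrl had a signal of 12.2 from a single read, since that read fitted a transcript of 191 effective bases against 3808 to 3882 in Foxo1TKO libraries. The Itga7 reads of Foxo1Ctrl libraries fitted effective lengths of 1652, 1472 and 1790 bases, short of the longest of its 5 annotated transcripts at 4020 bases.

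Some reads of these genes were shared with genes on the opposite strand. The last exons of Itga4 overlap Cerkl, and in 5 of the 6 libraries neither count was whole while their sum was. Cerkl was at 334, 590.5 and 636 in Foxo1TKO and at 396, 879 and 381 in Foxo1Ctrl libraries (log2 fold change -0.09 ± 0.38, adjusted p = 0.897). Itgav overlaps Gm13684 in the same way, and that gene rose from 29.8, 19.4 and 21.3 to 48.2, 68.4 and 134 (1.78 ± 0.45, adjusted p = 0.0222), small numbers beside those of Itgav. Reads from such a pair cannot be told apart where counting is not stated to use the strand. Haspin lies on the opposite strand within Itgae, without overlap of exons.

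The other 17 integrin chains were then counted as a list. Of these, 6 were tested, 3 were called higher (Itgb8, Itga9 and Itgad) and 2 lower (Itga6 and Itgb3), that is 83.3% against 23% of all tested genes, with a median log2 fold change of 0.94 among the 6, against 0.01 over all tested genes. Since Itga9 and Itgad passed the filter only through the libraries where they were high, nothing is read from this share. Itgam alone was tested and not called. The remaining 11 were too low to test, and 7 of them had no library above 3 counts. Itga2b, the platelet αIIb chain and the most abundant of these, was at 1.07 to 6.76 in Foxo1TKO and at 5.96 to 19.4 in Foxo1Ctrl libraries. The count of 5 called held with each library left out. Those fits kept the filter made on all libraries, so this is no independent check of Itga9 and Itgad.

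Integrins are switched on from inside the cell by talin and kindlin, downstream of the small GTPase Rap1 and its exchange factors. Among 26 such activators and inhibitors, 20 were tested, 3 rose and 4 fell (35%, against 23% of all tested genes), with a median log2 fold change of -0.11. Rasgrp2 (CalDAG-GEFI), an exchange factor for Rap1, fell from 931, 576 and 793 normalized counts in Foxo1Ctrl to 60.0, 74.6 and 35.4 in Foxo1TKO libraries (-3.73 ± 0.33, adjusted p = 0.000265). Rasgrp1, which acts mainly on Ras after T cell receptor engagement, rose from 2833, 2564 and 3970 to 7067, 6307 and 5986 (1.05 ± 0.19, adjusted p = 0.0069). Rap1a (0.77 ± 0.20, adjusted p = 0.026) and Rapgef1 (0.68 ± 0.20, adjusted p = 0.0444), an exchange factor for Rap1, rose too. Fyb, the adaptor ADAP (-1.05 ± 0.16, adjusted p = 0.00314), Apbb1ip, the Rap1 effector RIAM (-0.81 ± 0.19, adjusted p = 0.018), and Stk4, the kinase Mst1 (-0.86 ± 0.16, adjusted p = 0.00736), fell. Skap1, the partner of ADAP (-0.42 ± 0.15, adjusted p = 0.0719), and Rassf5, the Rap1 effector RAPL (0.22 ± 0.31, adjusted p = 0.649), were the most abundant that were not called. The talin gene Tln1 (0.35 ± 0.22, adjusted p = 0.307) and the kindlin gene Fermt3 (-0.38 ± 0.52, adjusted p = 0.642) were not called either. Of the 7 calls, 4 were left without replicate 2 or 3 of Foxo1TKO or without replicate 1 of Foxo1Ctrl, and Rapgef1 lost its call whichever library was left out.

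**Figure D4:**
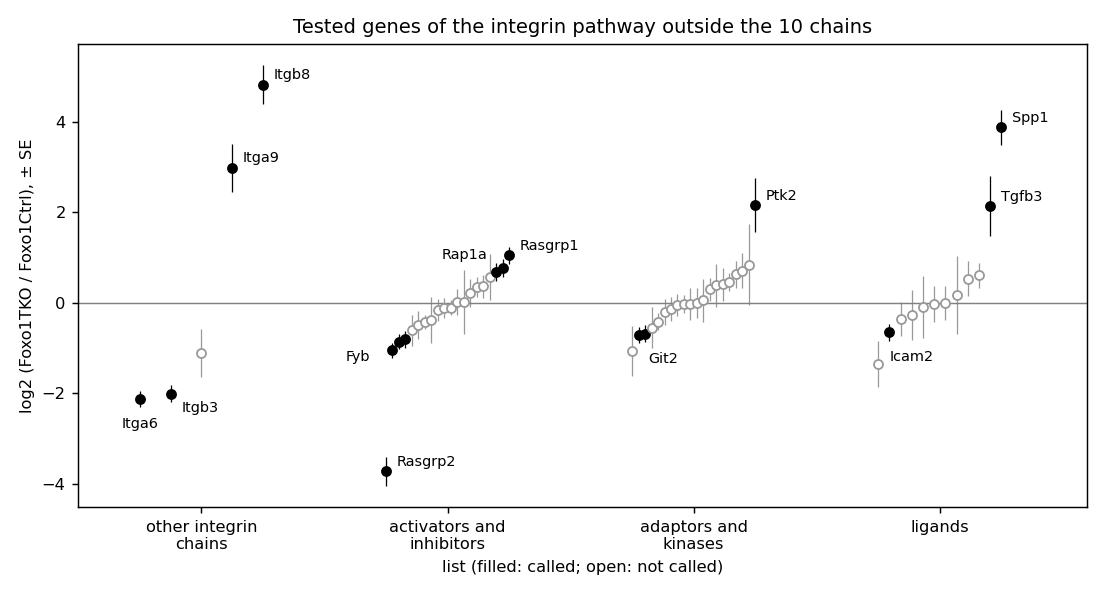
Log2 ratio of Foxo1TKO to Foxo1Ctrl (y axis, ± SE, n = 3 libraries per genotype) of tested genes in 4 lists of the integrin pathway (x axis), with genes in each list in order of their value; filled points were called and open points were not. Rasgrp2 (-3.73) and Spp1 (3.88) stood apart from their lists, and Itgad is left out because it has only a bound.

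Adaptors and kinases tie the β tails to actin and pass signals on. Of 27 listed, 20 were tested, 1 was called higher and 2 fell (15%, against 23% of all tested genes; median log2 fold change -0.02). Ptk2, focal adhesion kinase, was at 10.7, 2.29 and 5.81 in Foxo1Ctrl and at 21.97, 47.4 and 24.7 in Foxo1TKO libraries (2.16 ± 0.60). It is the gene called higher, but it passed the filter on low counts only through Foxo1TKO libraries and was named after its values were seen, so no p is given. It was not called once effective lengths entered the fit (log2 fold change 1.47). Git2 (-0.68 ± 0.18, adjusted p = 0.0311) and Arhgef6, the Rac exchange factor α-PIX that binds GIT proteins (-0.71 ± 0.18, adjusted p = 0.0259), fell. Lims1 (0.46 ± 0.21, adjusted p = 0.148) and Ilk (-0.06 ± 0.24, adjusted p = 0.894), which form a complex at the β tail, were not called. These 3 calls fell to 0 without replicate 2 of Foxo1TKO or replicate 3 of Foxo1Ctrl, and to 1 without replicate 3 of Foxo1TKO or replicate 1 of Foxo1Ctrl.

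Among 34 ligands of integrins, 12 were tested, 2 were called higher and 1 fell (25%, against 23% of all tested genes; median log2 fold change -0.02), and 15 had no library above 3 counts. Spp1, osteopontin, which α4β1, α9β1 and αv integrins bind, rose from 83.5, 169 and 221 normalized counts in Foxo1Ctrl to 2988, 2380 and 1665 in Foxo1TKO libraries (3.88 ± 0.39, adjusted p = 0.000493). Tgfb3, whose latent form αv integrins bind, was at 28.6, 4.57 and 39.7 in Foxo1Ctrl and at 172, 90.4 and 70.8 in Foxo1TKO libraries (2.14 ± 0.66), and passed the filter only through Foxo1TKO libraries. Icam2, a ligand of LFA-1, fell from 1047, 805 and 1052 to 690.5, 638 and 523 (-0.65 ± 0.19, adjusted p = 0.0383), a call that was also lost with effective lengths. Thy1 (-0.10 ± 0.69, adjusted p = 0.935) and Lgals3bp (-0.01 ± 0.38, adjusted p = 0.992) were the most abundant that were not called, and Icam1, another ligand of LFA-1, was at 475, 241 and 278 against 553, 229 and 491 (adjusted p = 0.545). Vcam1 and Fn1, the classical ligands of α4β1, were at 3.51 normalized counts or less in every library. The call of Spp1 was the only one left without replicate 2 or 3 of Foxo1TKO or without replicate 1 or 3 of Foxo1Ctrl.

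Other cells in the cultures were followed by their markers. The 10 B cell markers summed to 164 to 221 normalized counts in Foxo1TKO and to 560 to 639 in Foxo1Ctrl libraries. Of the 8 tested, 4 were called lower (50%, against 11.8% of all tested genes). These were Ms4a1, Cd79a, Cd79b and Cd22, the last of which passed the filter only through Foxo1Ctrl libraries. Of the 7 antigen presentation genes, all tested, 6 were called (85.7%, against 23% of all tested genes). Cd74 and Cd86 rose, and H2-Aa, H2-Ab1, H2-Eb1 and Cd80 fell. The 7 genes summed to 10443 to 17989 in Foxo1TKO and to 8519 to 10682 in Foxo1Ctrl libraries, which overlapped. Since the marker lists were chosen with earlier results of these data known, nothing is read from these shares. B cells and antigen presenting cells also carry α4, β2, β7 and αL chains, and the part of these cells in the values of Itga4, Itgb7, Itgal and Itgb2 was not tested. The 6 neutrophil markers summed to 25.4 or less in every library. Mast cell and platelet markers summed to 1649 to 3298 in Foxo1TKO and 424 to 594 in Foxo1Ctrl libraries, nearly all from Kit, without which they summed to 76.9 to 123 and 27.4 to 37.8. The 2 CD8 T cell markers summed to 91.2 to 145 against 144 to 161, and the 4 regulatory T cell markers to 4163 to 4827 against 4622 to 5674. Most of the regulatory T cell sum came from Il2ra (means of 1959 against 1985) and Capg (2240 against 2833). Foxp3 had means of 10.5 against 21.1.

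**Figure D5:**
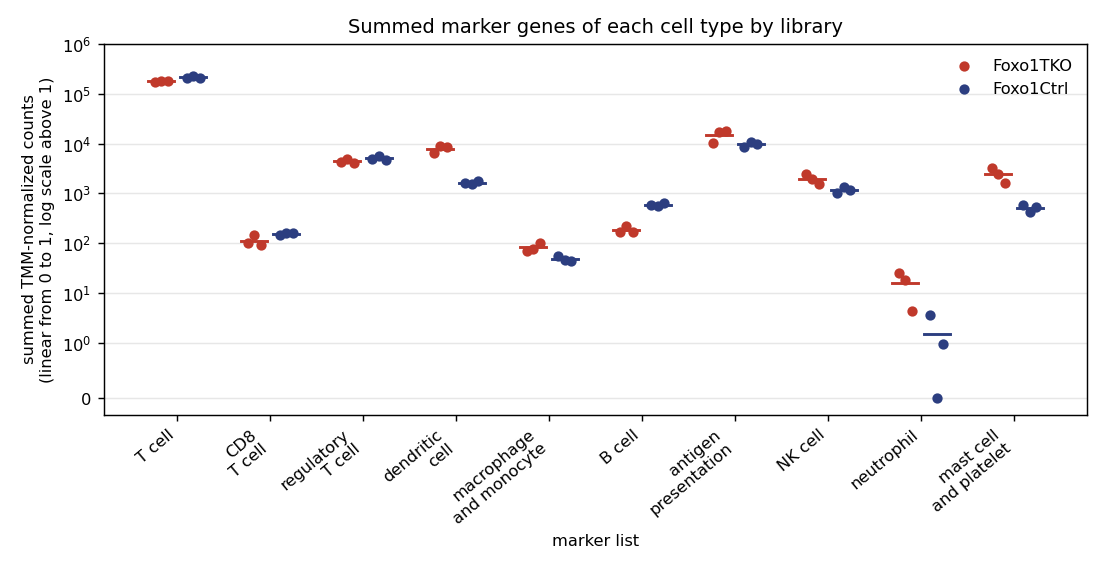
Summed TMM-normalized counts (y axis, linear from 0 to 1 and logarithmic above) of the markers of 10 cell types or functions (x axis) in each of 3 Foxo1TKO (red) and 3 Foxo1Ctrl (blue) libraries, with bars at the means. T cell markers summed to at least 176400 in every library, and B cell markers were lower in Foxo1TKO libraries.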

How the data were processed

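RNA of 3 Foxo1TKO and 3 Foxo1Ctrl cultures was sequenced, and groups and replicate numbers came from the sample titles. The authors aligned reads with STAR 2.7.6a to GRCm38, Ensembl release 101, allowing up to 10 mapping places per read, and used RSEM 1.3.1 for counting. Trimming and strand are not given in the sources used here. The authors deposited expected counts, TPM and effective lengths per gene, and a normalized signal for 13564 genes, scaled by DESeq2 and by effective length.

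Expected counts were rounded. The 13691 genes that reached 10 counts in 3 or more libraries were tested with edgeR 4.0.16 in R 4.3.3 (TMM, quasi-likelihood, prior count 1, genotype as the only term), with Benjamini-Hochberg adjustment over all genes tested. Every adjusted p is from this fit. Each SE of a log2 fold change came from the coefficient without prior count and the F statistic of its fit. Its variance borrows from other genes, so it is not the spread of 1 gene's libraries alone. Calls needed an adjusted p under 0.05 and a fold over 1.5. Where all libraries of a genotype had at most 3 counts, the fold is a bound against 3 counts per library, the largest such value over that genotype. Alternatives used DESeq2 1.42.0, limma 3.58.1 (voom, or log2 of the deposited signal plus 1), other scalings and filters, effective lengths, a replicate block and each library left out. The scripts were tested on simulated data. Positions came from GENCODE M21 (GRCm38), start site windows from RefSeq, and figures from matplotlib 3.10.9.

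The members, the gene lists and the motifs were chosen with earlier results of these data known. Named are the 10 members, in each pathway list up to 6 called genes per direction whose mean reached 20 normalized counts and the 2 most abundant not called, the 5 genes most like Itgax and Itga7, neighbouring genes, Foxo1 and cell type markers. Tln1, Fermt3, Icam1, Vcam1, Fn1, Madcam1, Cdh1, Itgad and Ptk2 were added after their values were seen. Marker sums without Cd83, Eomes or Kit were made for those lists only, and the genes left out were chosen with the results known.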

Additional observations from a re-analysis of the deposited data

How the results depend on the processing

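The 8 members with a fitted fold change kept their direction under every alternative, except Itgb1 and Itgae, which lay near 0 and had either sign (-0.21 to 0.28 and -0.58 to 0.44). With each library left out in turn, all genes called numbered 1854 to 3321 (3144 with all libraries), the fewest without replicate 2 of Foxo1TKO, and 2031 without replicate 1 of Foxo1Ctrl. Over the same omissions, 5 other integrin chains were called each time, 4 to 6 activators and inhibitors, 0 to 3 adaptors and kinases and 1 to 3 ligands. The filter stayed that of all libraries, so nothing is read from the 5 chains, which include Itga9 and Itgad. The other alternatives stayed within 1.5 times of each count, from 3011 (authors' signal with limma) to 3694 (DESeq2) for all genes. The 17 pathway genes followed kept their direction in all 255 values, of which 41 lost the call.

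Whether equal replicate numbers mark paired cultures is not given in the labels. The correlations of deviations between libraries with the same number were 0.432, 0.198 and -0.109. With so few libraries these values cannot decide it, and the main fit used no pairing. For flow cytometry of such cultures the paper used paired tests. With the replicate block, 3318 genes were called, and in the pathway lists Ptk2 lost its call (log2 fold change 2.13), which left 2 adaptors and kinases. Itgae rested on 7 to 29 reads per library, and the low side of Itgax, Itga7 and Itga2 on 5 or fewer.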
